A study of Homo sapiens with 24 samples.

Results

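The genes described are 8 short non-coding RNAs, RN7SL1, RN7SL2, RN7SL3, RN7SL4P, RN7SL5P, RN7SK, RMRP and RPPH1, of 58174 genes listed for each of 4 human cancer cell lines. They were chosen by name, as genes or copies of short RNAs that RNA polymerase III makes and that are seen in RNA depleted of ribosomal RNA. Their detection and level are therefore a description. Total RNA was sequenced after transfection of A549, ES2, MV3 or PANC1 cells with either a control siRNA (siC) or an siRNA pool that targets IGF2BP1 (siI1), an RNA-binding protein made in the embryo and in many tumours. Each line gave 3 siC and 3 siI1 libraries, 24 in all, described in the methods as biological replicates. Cells of A549, a lung adenocarcinoma line, ES2, an ovarian clear cell adenocarcinoma line, and MV3, an amelanotic melanoma line, were harvested 72 hours after transfection. Cells of PANC1, a pancreatic ductal adenocarcinoma line, were harvested at 96 hours, so that line and time cannot be told apart. All groups were transfected, and no untransfected cells were analysed here.

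RNA polymerase III makes short RNAs that end in a run of uridines and carry no poly(A) tail. 7SL RNA is the scaffold of the signal recognition particle, which binds signal peptides on translating ribosomes and brings them to the endoplasmic reticulum, and the primate Alu repeats descend from it. 7SK RNA holds the kinase P-TEFb inactive together with the proteins HEXIM1, LARP7 and MEPCE. RMRP is the RNA of RNase MRP, which cuts precursor ribosomal RNA, and RPPH1 is the RNA of RNase P, which trims the 5′ end of tRNA precursors.

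The 7SL genes are copies that share stretches of sequence, and they differ in how far a read can tell them apart. They were compared in hg38 at the GENCODE release 44 positions. RN7SL2 lies at chr14:49862550-49862849 on the minus strand and overlaps an exon of the gene AL627171.2 on that strand. RN7SL3 lies near it at chr14:49853616-49853914, also on the minus strand, with no other gene over it. RN7SL1 lies at chr14:49586580-49586878 on the plus strand, in an intron of RPS29, which runs the other way. RN7SL4P lies at chr3:15738515-15738809, in an intron of ANKRD28, and RN7SL5P at chr9:9442060-9442380, in an intron of PTPRD, both on the plus strand and against the host gene. In RN7SL1, RN7SL2 and RN7SL3 a run of 4 T began at or next to the gene end. RN7SL4P had no run of 4 or more T up to 20 bases past its end, and in RN7SL5P the first began at base 14 past it. Whether RN7SL4P and RN7SL5P are made by RNA polymerase III was not tested. RN7SL471P, a more distant copy that is not among the 8, lies at chr6:28977475-28977773 on the plus strand and is included because of its values in PANC1.

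In global alignments RN7SL1 differed from RN7SL2 at 5 columns, or 98.3% identity, and RN7SL3 at 12 columns, or 96.0% identity. RN7SL4P was 86.7% and RN7SL5P 85.1% identical to RN7SL2 over their length, but up to base 230 of RN7SL2, a boundary set after the alignments were seen, they differed at only 3 and 4 columns. The remaining 37 and 44 differing columns lay after that base. Many reads of 76 bases from the first stretch therefore match several copies. The libraries were sequenced as pairs, and the windows below treat each read on its own. Of the 225 windows of 76 bases in RN7SL2, 36 occurred at 1 place in the primary chromosomes of hg38 (16.0%), against 51 of 224 in RN7SL1, 176 of 224 in RN7SL3, 103 of 220 in RN7SL4P and 112 of 246 in RN7SL5P. All 224 windows of RN7SL471P occurred once. The setting for reads with several matches is not given in the sources used here, so the split of reads among the 5 7SL genes is uncertain. Their sum depends on the same setting and is uncertain too.

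Of the 8 members 4 had reads in every library and 4 were listed at 0 in nearly all. RN7SL1, RN7SK and RPPH1 were listed at 0 in all 24 libraries. RMRP was listed at 0 in 23 libraries and had 1 read, 0.517 FPKM, in ES2 siC replicate 3. FPKM, the deposited unit, counts reads per gene length and per scaled library total. A count of 0 allows a share of up to 1.49e-05% in the deepest and 9.66e-05% in the shallowest library, taking 3 reads as the limit. All 37 mitochondrial genes, which every cell uses, were also listed at 0 in all libraries, as were SCARNA2, RNU12, RNU2.1, RNU7.1 and VTRNA2.1. A listed 0 therefore cannot be read as absence of the RNA.

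The members at 0 differed in how far their sequence is shared. All 258 windows of 76 bases in RPPH1 (chr14:20343075-20343407, minus strand) occurred once in the primary chromosomes. All 189 windows of RMRP at its release 44 place (chr9:35657754-35658017, minus strand) did so too. RN7SK (chr6:52995621-52995948, plus strand) had 94 of 253 such windows. Other listed genes cover these places: X7SK.4 over RN7SK and another RMRP entry, RMRP.1, were at 0 in all libraries, and AL355075.4 over RPPH1 had at most 1 read. AL627171.2, which overlaps RN7SL2, had 1 to 19 reads. How reads in overlapping genes were counted was not tested.

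The 4 members with reads, RN7SL2, RN7SL3, RN7SL4P and RN7SL5P, were among the highest genes of every line. RN7SL2 ranked highest by reads and by FPKM in each line. In PANC1 the 4 members were the 4 highest genes by reads and by FPKM, ahead of EEF1A1, a translation elongation factor, at rank 5 by reads. RN7SL2 carried 77.8% to 87.7% of the members' reads.

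The members together took 10.1% to 25.5% of assigned reads in PANC1, 9.35% to 11.2% in MV3, 5.22% to 6.24% in ES2 and 3.97% to 4.97% in A549. Assigned reads numbered 3105215 to 20082702 per library, so the 95% Wilson interval of a member's share reached at most 0.0309 percentage points to either side, for counting error only. In A549 the share was 4.36%, 3.97% and 4.86% in the siC libraries and 4.34%, 4.49% and 4.97% in the siI1 libraries. In ES2 it was 5.23%, 6.24% and 5.22% in siC and 5.93%, 5.47% and 5.72% in siI1. The siC and siI1 libraries of these lines overlapped. In MV3 the share was 9.96%, 9.59% and 9.35% in siC and 9.85%, 11.1% and 11.2% in siI1, where 1 siI1 library fell within the siC range. In PANC1 it was 12.4%, 15.4% and 10.1% in siC and 22.1%, 25.5% and 21.3% in siI1, and the groups stood apart. The means in PANC1 were 12.6% ± 2.62 (SD, n = 3) in siC and 22.98% ± 2.25 (SD, n = 3) in siI1, a ratio of 1.82. The sum over the chosen genes was given no test.

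**Figure D1:**
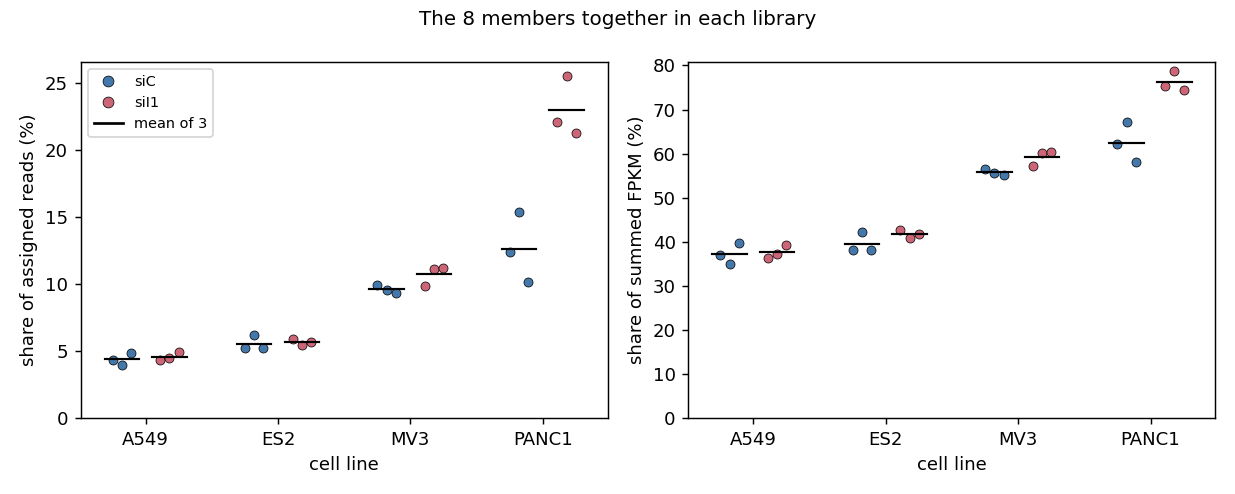
Share of each library taken by the 8 members, as a percentage of assigned reads (left) and of summed FPKM (right), by cell line, with a point per library and a bar at the mean of 3. On the left, the PANC1 siI1 libraries lie at 21.3% to 25.5%, above the siC libraries of that line at 10.1% to 15.4%, while the groups of A549, ES2 and MV3 overlap.

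As a share of summed FPKM, which weighs short genes by their length, the members took 62.5% ± 4.60 (SD, n = 3) in PANC1 siC and 76.2% ± 2.20 in siI1. In MV3 the values were 55.8% ± 0.664 and 59.3% ± 1.77, and here the MV3 groups stood apart too. A549 held 37.3% and 37.7%, and ES2 held 39.5% and 41.8%, with overlap. The order of the lines was the same by both measures in siC, from A549 through ES2 and MV3 to PANC1, although the tables were normalised separately and the levels were not tested between lines.

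IGF2BP1 itself was lower in siI1 in every line, which checks the labels. Its FPKM was 39.7 ± 0.0742 (SD, n = 3) in A549 siC against 15.6 ± 0.674 in siI1, 13.1 ± 0.914 against 4.14 ± 0.102 in ES2, 9.26 ± 0.325 against 2.91 ± 0.126 in MV3 and 11.1 ± 0.151 against 2.77 ± 0.0800 in PANC1. KRT8, an epithelial keratin, averaged 377 FPKM in A549 and 848 in PANC1, while the lung markers NKX2-1, SFTPB and SFTPC were listed at 0 in A549. The melanocyte genes SOX10, TYR and S100B were listed at 0 in MV3, and the ovarian markers PAX8 and WT1 averaged 0.200 and 0.0814 in ES2.

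RN7SL2, the main 7SL gene by reads, was about as high in siI1 as in siC in A549 and ES2. Its FPKM was 128774, 114764 and 137252 in A549 siC and 119475, 129267 and 132524 in siI1. In ES2 it was 150656, 184118 and 152969 in siC and 170596, 155895 and 165858 in siI1. The groups overlapped in both lines. In MV3 the siC libraries had 267069, 255836 and 244060 and the siI1 libraries 259062, 294956 and 293843, again with overlap in FPKM. As a share of assigned reads RN7SL2 took 7.74%, 7.48% and 7.32% in MV3 siC and 8.11%, 8.93% and 8.89% in siI1, so that on this scale the MV3 groups did not overlap. In PANC1 the siC libraries had 331144, 425337 and 263872 and the siI1 libraries 636556, 769585 and 605711, so that the lowest siI1 library was above the highest siC library.

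Each gene was tested in each line with limma on log2(FPKM + 0.5), and p-values were adjusted by Benjamini-Hochberg over every gene tested in the line. The log2 fold change of RN7SL2, siI1 against siC, was 1.00 in PANC1, 0.14 in MV3, 0.02 in ES2 and 0.00 in A549. In PANC1 it did not pass (limma adjusted p = 0.727). The fit gave it a standard error of 1.78, while the 6 libraries of the gene alone gave 0.225. limma moderates each gene's spread towards that of genes at a like level, and RN7SL2 lies at the upper end of all levels, where the prior SD was 3.54 against 0.276 for the gene's own residuals. The fit also widened the standard error of RN7SL2 in A549, 0.337 against 0.0880 from its own libraries, and in ES2, 0.321 against 0.101. A pass of RN7SL2 was thus made less likely in these lines too. With 1 prior spread for all genes, an alternative chosen after seeing the data, its standard error in PANC1 was 0.200 and the adjusted p 0.0251. The exact permutation test of 3 against 3 libraries gave p = 0.1 (two-sided), the smallest it can give.

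RN7SL3 had the highest log2 fold change of the 4 members in every line. In PANC1 its FPKM was 16157, 23946 and 12320 in siC and 50710, 64439 and 47310 in siI1, without overlap. It rose there by a log2 fold change of 1.67 (SE 0.42, limma adjusted p = 0.0308), a 3.10-fold ratio of means. This call was lost without siC replicate 1 (limma adjusted p = 0.221), without siI1 replicate 1, 2 or 3 (limma adjusted p = 0.176, 0.189 and 0.150) and with no minimum mean (limma adjusted p = 0.895), while the log2 fold change stayed between 1.45 and 1.93 with a library left out. In A549 it was 3466, 2813 and 4188 in siC and 4342, 5370 and 8780 in siI1, also without overlap. The log2 fold change there was 0.78 (SE 0.28) and did not pass (limma adjusted p = 0.138), and siI1 replicate 3 was well above the other libraries: without it the value was 0.49. In MV3 it was 11177, 10676 and 11233 in siC and 11666, 13784 and 15195 in siI1, without overlap, with a log2 fold change of 0.29 (SE 0.19, limma adjusted p = 0.297). In ES2 it was 4422, 5749 and 4293 in siC and 5669, 4956 and 5603 in siI1, and the groups overlapped.

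RN7SL4P and RN7SL5P, the copies that match RN7SL2 in their first stretch, stood apart only in PANC1 among the 4 lines. RN7SL4P had 17821, 28549 and 14273 FPKM in PANC1 siC and 40308, 51928 and 37296 in siI1. RN7SL5P had 20515, 30696 and 15079 in siC and 41388, 51372 and 37565 in siI1. Their log2 fold changes were 1.142 (SE 0.42, limma adjusted p = 0.0978) and 1.02 (SE 0.43, limma adjusted p = 0.132), so neither passed. In A549 both were highest in siI1 replicate 3, at 11799 and 14548 FPKM, within groups that overlapped, and without that library the log2 fold change of RN7SL4P was 0.020 in place of 0.29. In MV3 RN7SL5P had 31337, 29736 and 26944 in siC and 17869, 26342 and 28691 in siI1, a log2 fold change of -0.30 (SE 0.34) with overlap, which was -0.091 without siI1 replicate 1. RN7SL4P in MV3 was at -0.03, and its sign turned to 0.02 when each library was scaled to an equal sum of reads.

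**Figure D2:**
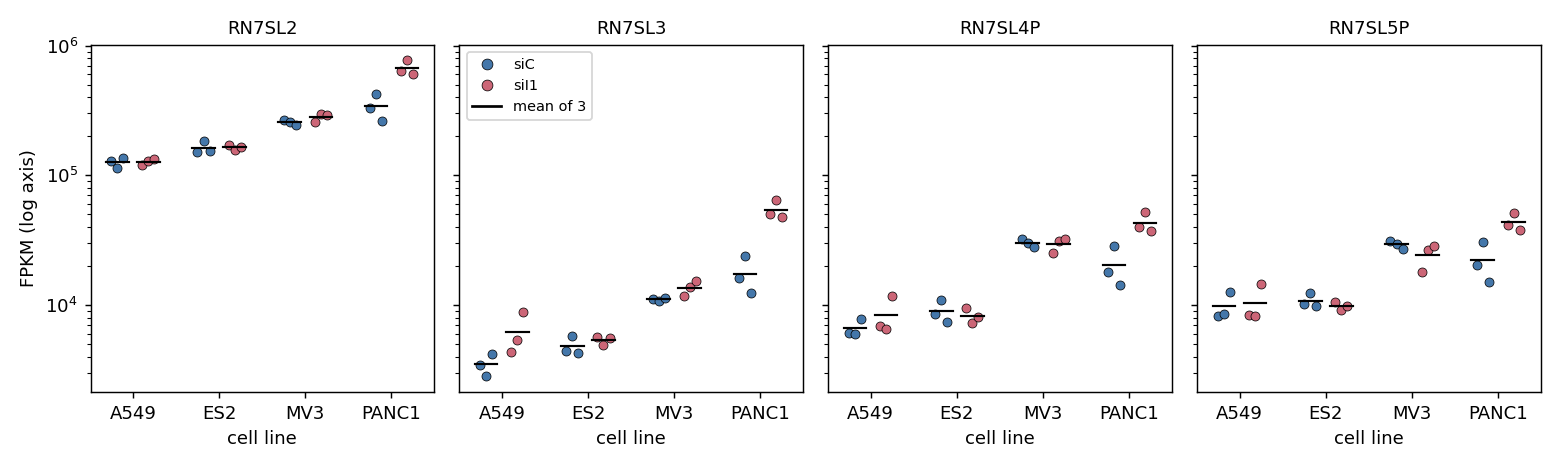
FPKM of RN7SL2, RN7SL3, RN7SL4P and RN7SL5P in each library on a log axis, by cell line, with a point per library and a bar at the mean of 3. In PANC1 the siI1 libraries of all 4 genes lie above the siC libraries, as for RN7SL2 at 605711 to 769585 against 263872 to 425337.

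Of the 4 members tested, none passed in A549, ES2 or MV3 and 1 passed in PANC1, as higher. In PANC1 11.3% of the 15846 genes tested were called higher and 13.4% lower. The background was 5.93% higher and 7.83% lower in A549, 10.5% and 13% in ES2, and 16.3% and 19.5% in MV3. By limma at an unadjusted p under 0.05 there were 2 in PANC1, 1 in A549 and 0 in both ES2 and MV3. limma voom on the recovered reads called more: 2 higher in A549, 1 higher in ES2, 2 higher and 1 lower in MV3, and 4 higher in PANC1. Over all genes voom called 1837 higher and 2339 lower of 18411 in A549, and 2414 and 2944 of 16920 in ES2. In MV3 it called 3341 and 3710 of 16380, and in PANC1 2256 and 2760 of 15846. In A549 voom gave RN7SL3 and RN7SL4P standard errors of 0.072 and 0.062, where each gene's own 6 libraries gave 0.351 and 0.303. These 2 calls thus rest on a smaller spread than the libraries show. Groups without overlap in FPKM were seen for 4 members in PANC1, where 43.2% of all genes had such groups, and for 1 member in A549 (34% of all genes), 1 in MV3 (50.4%) and 0 in ES2 (42.1%). In share of assigned reads they were seen for 4 members in PANC1 (45.4% of all genes), 2 in MV3 (RN7SL2 and RN7SL3, 50.7%), 1 in A549 (34.2%) and 0 in ES2 (41.8%). The members share libraries and, in part, reads, so they are not independent of each other.

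**Figure D3:**
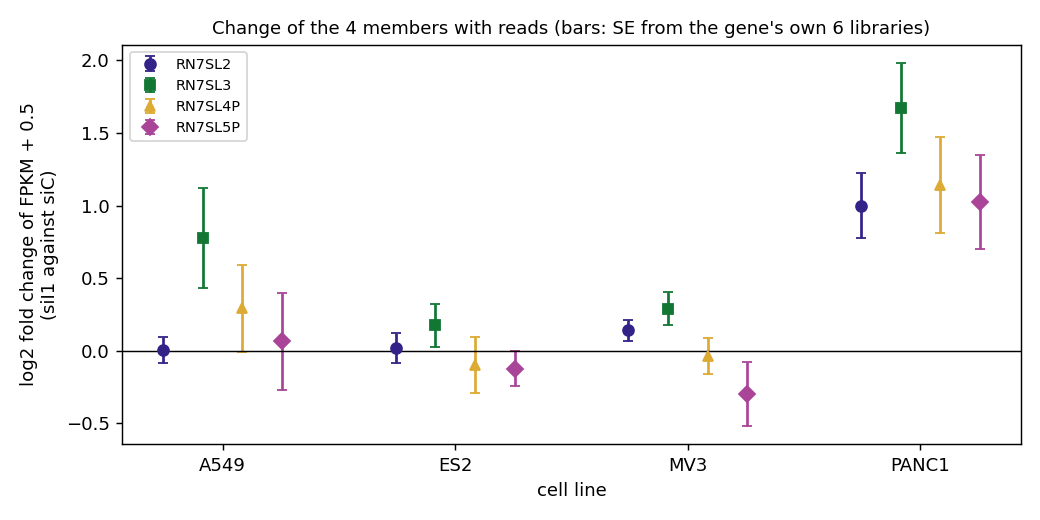
Log2 fold change of FPKM + 0.5, siI1 against siC, for the 4 members with reads, by cell line. Points are the estimates and bars are the standard error from the gene's own 6 libraries, before moderation. All 4 points of PANC1 lie at 1.00 or above, while those of the other lines lie between -0.30 and 0.78.

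The change on siI1 differed between the lines for 3 of the 4 members. The interaction of line and siRNA over all 24 libraries gave a limma adjusted p of 0.00480 for RN7SL3, 0.0204 for RN7SL4P and 0.0229 for RN7SL5P, and 0.0904 for RN7SL2. Of the 12816 genes tested in all lines, 45% passed, so a pass was common. RN7SL2 passed as well at an equal sum of reads (limma adjusted p = 0.0217), at an equal sum outside the 8 members (limma adjusted p = 0.0291) and with 1 prior spread for all genes (limma adjusted p = 0.000765). The test asks whether the 4 lines share 1 change and does not single out a line. For each of the 4 genes the estimate was highest in PANC1, the line harvested later, and line and time cannot be told apart.

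The scale of the libraries bears on PANC1. The scaling factors implied by the deposited values averaged 1.06 ± 0.0508 (SD, n = 3) in siC and 0.945 ± 0.0350 in siI1, and did not overlap. Scaled to an equal sum of reads, the log2 fold changes in PANC1 were 0.83 for RN7SL2, 1.51 for RN7SL3, 0.98 for RN7SL4P and 0.86 for RN7SL5P, while the median of all genes tested was -0.18. Scaled to an equal sum outside the 8 members they were 1.01, 1.69, 1.16 and 1.04, with a median of all genes of -0.02. The direction in PANC1 was the same under the scalings tried, with the smallest values, 0.24 for RN7SL2 and 0.92 for RN7SL3, at an equal sum of FPKM, where the median of all genes was -0.68. The shares of some other classes differed between the PANC1 groups too, without overlap. Reads of protein-coding genes had a median share of 83.4% in siC and 74.3% in siI1. The lincRNAs had 1.11% and 0.525%, the snRNAs 0.0217% and 0.0203%, and the scaRNAs 0.0652% and 0.108%. The groups overlapped for snoRNAs, at 0.755% and 0.737%, and for rRNAs, at 0.00861% and 0.0107%. All are shares of the same total, so a larger share of the members leaves less for the other classes together. The part of these classes in the result was not tested. In these bulk samples a change in the RNA of each cell cannot be told apart from a change in the mix of cells or from a change in all other RNA.

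The ratio of RN7SL3 to RN7SL2 within a library does not depend on the scale. It was 4.88%, 5.63% and 4.67% in PANC1 siC and 7.97%, 8.37% and 7.81% in siI1. In A549 it was 2.69%, 2.45% and 3.05% in siC and 3.63%, 4.15% and 6.63% in siI1. In ES2 the means were 2.95% ± 0.159 (SD, n = 3) and 3.29% ± 0.103. RN7SL3 was thus higher against RN7SL2 in siI1, without overlap, in these 3 lines, and in MV3 the groups overlapped at means of 4.32% and 4.78%. No background was computed for such ratios, and they were given no test. In FPKM, groups without overlap were common: 43.2% of all genes in PANC1, 34% in A549 and 42.1% in ES2. RN7SL3 differs from RN7SL2 at 12 columns, and 176 of its 224 windows occur once.

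RN7SL5P and RN7SL4P stood differently against RN7SL2. RN7SL5P was at 11.5% ± 0.373 (SD, n = 3) of RN7SL2 in MV3 siC and 8.53% ± 1.47 in siI1, lower without overlap. In ES2 it was 6.62% ± 0.201 and 5.996% ± 0.161, also without overlap. RN7SL4P was 11.8% ± 0.271 and 10.4% ± 0.676 in MV3, without overlap, and the groups overlapped in the other lines. In PANC1 RN7SL5P was 6.38% and 6.46% and RN7SL4P 5.83% and 6.41% of RN7SL2. These ratios rest on how reads were split among copies, and they were given no test. Of all genes, 50.4% in MV3 and 42.1% in ES2 had groups without overlap in FPKM.

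**Figure D4:**
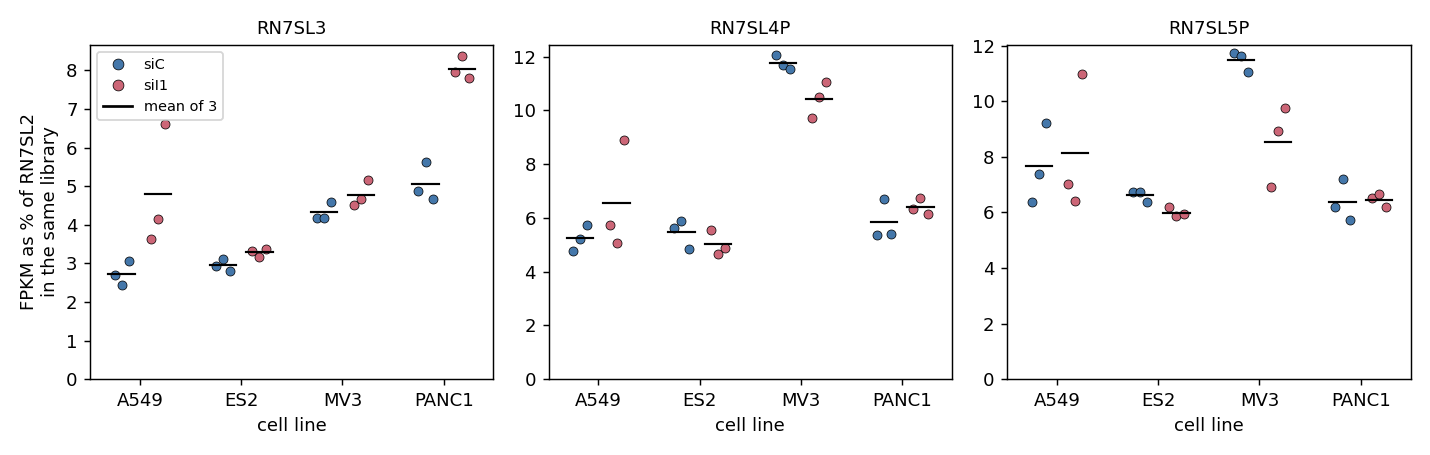
FPKM of RN7SL3, RN7SL4P and RN7SL5P as a percentage of RN7SL2 in the same library, by cell line, with a point per library and a bar at the mean of 3. RN7SL3 in PANC1 lies at 4.67% to 5.63% in siC and at 7.81% to 8.37% in siI1, while RN7SL5P in MV3 has means of 11.5% in siC and 8.53% in siI1.

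The other copies of the 7SL family carried few reads. Of 675 other listed RN7SL copies, 379 to 461 were at 0 in the 6 libraries of a line, and the family took 0.00917% to 0.0630% of assigned reads. In PANC1 it took 0.0164% to 0.0205% in siC and 0.0490% to 0.0630% in siI1, without overlap, and in MV3 0.0109% to 0.0126% and 0.0146% to 0.0162%, also without overlap. Of single genes, 45.4% in PANC1 and 50.7% in MV3 had shares without overlap. Among the copies with a mean of at least 10 reads, 6 of 11 passed as higher and 0 as lower in PANC1, 3 higher and 1 lower of 31 in MV3, and 0 of 5 in A549 and 0 of 12 in ES2, where 0 and 1 had an unadjusted limma p under 0.05. Over all genes with such reads, 13.5% were higher and 15.8% lower in PANC1, 17.8% and 22.1% in MV3, 12.5% and 16.1% in ES2, and 7.77% and 10.6% in A549, so the share of higher copies in MV3 was under that of all genes. Over all copies tested in PANC1, most of them with fewer reads, the counts were 8 higher and 6 lower of 92. Both were under the shares of all genes tested there, 11.3% higher and 13.4% lower.

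RN7SL471P, chosen after its values were seen, had the largest change among these copies in PANC1. Its FPKM was 246, 348 and 166 in PANC1 siC and 1314, 1856 and 1413 in siI1, without overlap. It rose by a log2 fold change of 2.64 (SE 0.28, limma adjusted p = 0.00213), a larger estimate than that of any member. It also rose in MV3, from 113.6, 94.5 and 94.0 FPKM in siC to 131.7, 149 and 166 in siI1, a log2 fold change of 0.56 (SE 0.11, limma adjusted p = 0.00840). In ES2 it was at 58.1 and 61.3, and in A549 at 0 in 4 of 6 libraries. Its sequence was 75.7% identical to RN7SL2 and its windows occurred once, so a perfect read of 76 bases from it matches no member.

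Copies of RN7SK had reads, although RN7SK itself was listed at 0. RN7SKP203 (chr2:76445079-76445410, minus strand) was the highest of 293 listed copies, and its first 300 bases are set beside those of RN7SK, with capitals where they differ from RN7SK or where RN7SK lacks the base.
RN7SK: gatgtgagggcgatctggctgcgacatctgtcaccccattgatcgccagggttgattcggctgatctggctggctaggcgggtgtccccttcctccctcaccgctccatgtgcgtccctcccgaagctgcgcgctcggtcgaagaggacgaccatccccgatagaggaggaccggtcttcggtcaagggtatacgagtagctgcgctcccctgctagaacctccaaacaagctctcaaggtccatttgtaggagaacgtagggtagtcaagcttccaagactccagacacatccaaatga
RN7SKP203: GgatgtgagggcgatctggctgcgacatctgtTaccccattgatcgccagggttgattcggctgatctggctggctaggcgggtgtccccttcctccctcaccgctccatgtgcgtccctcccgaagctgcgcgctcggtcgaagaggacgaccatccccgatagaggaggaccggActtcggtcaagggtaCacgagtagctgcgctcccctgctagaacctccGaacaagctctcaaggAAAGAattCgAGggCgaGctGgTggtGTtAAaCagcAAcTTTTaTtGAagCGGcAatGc

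Up to base 230 of RN7SK the copy differed at 5 alignment columns and after it at 47, and 68 of the 253 windows of RN7SK were also in the copy. RN7SKP71 and RN7SKP255 likewise differed at 6 and 5 columns up to that base. The RN7SK copies together took 0.0695%, 0.0914% and 0.112% of reads in PANC1 siC, from lowest to highest, and 0.130%, 0.137% and 0.158% in siI1, without overlap. The share was 0.0789% to 0.0823% in MV3 siC and 0.0821% to 0.0914% in siI1, and the groups of MV3 and ES2 overlapped, while A549 had 0.0274% to 0.0299% and 0.0313% to 0.0408%, without overlap. Shares without overlap were seen for 45.4% of single genes in PANC1 and 34.2% in A549.

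Of the 9 RN7SK copies with at least 10 reads on average in PANC1, 5 passed as higher and 0 as lower. RN7SKP203 had 1020, 1297 and 711 FPKM in siC and 1782, 2116 and 1649 in siI1, and rose by 0.91 on the log2 scale (SE 0.23, limma adjusted p = 0.0320). RN7SKP71 rose by 0.93 (SE 0.23, limma adjusted p = 0.0302) and RN7SKP255 by 0.73 (SE 0.17, limma adjusted p = 0.0271). In MV3 3 of 15 passed as higher, and in A549 and ES2 0 of 6 and 0 of 10 did, with 0 in either line at an unadjusted limma p under 0.05. The share in MV3 was close to the 17.8% of all genes with such reads, and that in PANC1 stands beside 13.5%. Over all RN7SK copies tested, 5 were higher and 2 lower of 35 in PANC1, and 6 higher and 1 lower of 33 in MV3. All genes tested gave 11.3% higher and 13.4% lower in PANC1, and 16.3% and 19.5% in MV3, so these counts were near the background. Whether these reads come from the copies or from RN7SK cannot be told apart where the windows are shared.

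**Figure D5:**
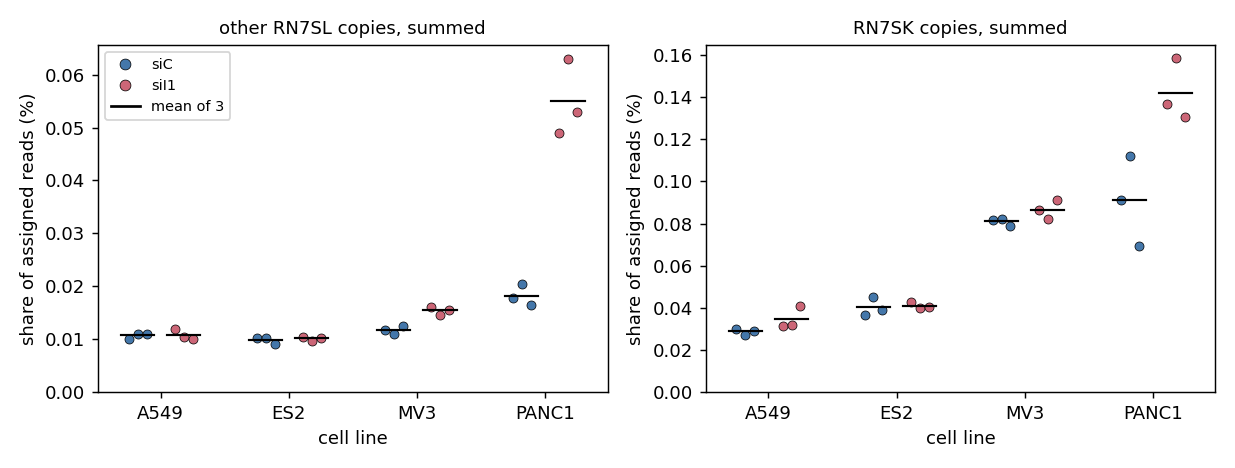
Summed share of assigned reads of the other RN7SL copies (left) and of the RN7SK copies (right) in each library, in percent, by cell line, with a point per library and a bar at the mean of 3. The PANC1 siI1 libraries lie at 0.0490% to 0.0630% on the left and at 0.130% to 0.158% on the right, above the siC libraries of that line.

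The genes for proteins that bind these RNAs were read from lists chosen by function. Over all genes tested, 5.93% were called higher and 7.83% lower in A549, and 10.5% and 13% in ES2. The shares were 16.3% and 19.5% in MV3 and 11.3% and 13.4% in PANC1. Of 8 genes of the signal recognition particle and its receptor, 0 passed in A549 and PANC1, 1 as higher in ES2 (SRP9) and 3 as lower in MV3 (SRP72, SRPRA and SRPRB). At an unadjusted limma p under 0.05 there were 4 in A549 and 1 in PANC1. Among them SRPRB, a receptor subunit, fell in MV3 from 21.6 ± 0.876 (SD, n = 3) to 16.3 ± 0.330 FPKM (limma adjusted p = 0.000726). In PANC1 the median log2 fold change of the 8 was -0.11, beside -0.04 over all genes tested. Of 7 genes of the 7SK particle and P-TEFb, 1 was lower in A549, 3 lower in ES2, 2 higher in MV3 and 0 passed in PANC1, where 3 had an unadjusted limma p under 0.05. HEXIM1, which inhibits P-TEFb on 7SK, fell by 0.69 on the log2 scale in ES2 (limma adjusted p = 0.00360) and rose by 0.29 in MV3 (limma adjusted p = 0.00220).

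Of 10 tested genes for proteins of RNase P and RNase MRP, 0 passed in A549, 4 as lower in ES2, 1 as higher and 4 as lower in MV3, and 4 as higher and 1 as lower in PANC1. In A549 2 had an unadjusted limma p under 0.05. Beside these counts, 13% of all genes were called lower in ES2, 16.3% higher and 19.5% lower in MV3, and 11.3% and 13.4% in PANC1. POP1, a subunit of both enzymes, fell in 3 lines. In PANC1 it went from 8.17 ± 0.434 (SD, n = 3) to 4.77 ± 0.503 FPKM, a log2 fold change of -0.72 (SE 0.09, limma adjusted p = 0.00329). In MV3 the log2 fold change was -0.46 (limma adjusted p = 0.000244) and in ES2 -0.30 (limma adjusted p = 0.0391), while in A549 it was 0.07 and did not pass. POP7, another shared subunit, fell in ES2 and MV3 by 0.51 and 0.53 and rose in PANC1 by 0.51 on the log2 scale.

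Of 31 genes of RNA polymerase III and its factors, 4 passed as higher in A549, 1 as higher and 8 as lower in ES2, 3 as higher and 8 as lower in MV3, and 3 as higher and 1 as lower in PANC1. The shares of all genes were 5.93% higher in A549, 10.5% higher and 13% lower in ES2, and 16.3% and 19.5% in MV3. In PANC1 they were 11.3% and 13.4%, and the list was under both. POLR3G, a polymerase subunit that is high in stem and tumour cells, fell in ES2 by 0.77 (limma adjusted p = 0.000511) and in MV3 by 0.62 (limma adjusted p = 0.000404) on the log2 scale. In PANC1 POLR1C, a subunit shared with RNA polymerase I, rose by 0.59 (limma adjusted p = 0.00619) and SNAPC2 by 0.51 (limma adjusted p = 0.00416), while SNAPC5 fell by 0.42. The median log2 fold change of the list in PANC1 was 0.08. These genes were named after their values were seen.

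Other short RNAs were thin in reads. Of 12 tested RNAs of RNA polymerase III in PANC1, 3 passed as higher and 1 as lower, against 0 of 12 in A549 (3 at an unadjusted limma p under 0.05), 2 higher and 1 lower of 12 in ES2 and 2 higher of 13 in MV3. Among all genes tested, 11.3% were higher and 13.4% lower in PANC1, 5.93% and 7.83% in A549, 10.5% and 13% in ES2, and 16.3% higher in MV3. With a mean of at least 10 reads, 1 of 4 passed as higher in PANC1, 1 of 4 as lower in ES2 and 2 of 10 as higher in MV3. Of all genes with such reads, 13.5% were higher in PANC1, 16.1% lower in ES2 and 17.8% higher in MV3. RNY3, a Y RNA bound by the Ro protein, passed as higher in 3 lines. It went from 3.61 ± 0.947 (SD, n = 3) to 9.63 ± 1.69 FPKM in PANC1 on a mean of 4.67 reads, from 5.29 to 11.7 in ES2 on 6.50 reads and from 13.9 to 28.1 in MV3 on 39.7 reads. RNY1, another Y RNA, rose in PANC1 by 2.06 on the log2 scale (SE 0.24, limma adjusted p = 0.00288) on 15.2 reads. VTRNA1.2, the 1 that passed as lower there, had a log2 fold change of -1.41 (SE 0.15, limma adjusted p = 0.00213) on 4.67 reads. BCYRN1, the neuronal BC200 RNA that also descends from 7SL, fell in ES2 by 0.71 (limma adjusted p = 0.00244) and was at 0.63 in PANC1, where it did not pass.

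Of 15 tested small RNAs of RNA polymerase II in PANC1, 5 passed as higher and 0 as lower, beside 11.3% and 13.4% of all genes tested. With a mean of at least 10 reads, 4 of 14 passed as higher and 0 as lower, beside 13.5% and 15.8% of all genes with such reads. SCARNA6, which guides modification of spliceosomal RNA, went from 268 ± 25.2 (SD, n = 3) to 699 ± 95.6 FPKM, a log2 fold change of 1.38 (SE 0.12, limma adjusted p = 0.00144). SCARNA5 rose by 1.07 (limma adjusted p = 0.00215) and SCARNA7 by 0.93 (limma adjusted p = 0.00569) in PANC1. SNORD3A, the U3 RNA of ribosome assembly, was at 3974 ± 519 and 4079 ± 479 FPKM there and did not pass. In the other lines 2 higher and 1 lower of 15 passed in A549, 0 of 18 in ES2 (3 at an unadjusted limma p under 0.05), and 1 lower of 17 in MV3. The shares of all genes were 5.93% higher and 7.83% lower in A549, 10.5% and 13% in ES2, and 16.3% and 19.5% in MV3.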

How the data were processed

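Total RNA of 24 libraries was depleted of ribosomal RNA, made into directional libraries and sequenced as paired reads of 76 bases. Per the methods, reads were trimmed (Cutadapt), aligned (HISAT2) and counted per gene of Ensembl GRCh38.89 (featureCounts). The deposited FPKM values were scaled within each line by TMM in edgeR, by the authors. The settings for reads with several matches, overlapping genes and strand are not given in the sources used here. The deposited columns of fold changes, p-values and FDR hold the authors' comparisons and were not used. Whole reads were recovered from the FPKM for 100% of values (within 0.1 read) and summed to 3105215 to 20082702 per library.

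Genes averaging 0.5 FPKM or more were tested per line with limma (trend) on log2(FPKM + 0.5), with Benjamini-Hochberg adjustment over all genes and a threshold of 0.05. Such fold changes understate those of low genes. Differences between lines were tested by the interaction of line and siRNA. Alternatives were other pseudocounts, filters and scalings, limma voom on the recovered reads, a replicate block and leaving out each library. The method was tested on simulated data, where wrongly called genes were mostly short genes with few reads, so calls of such genes are less reliable. The members and gene lists were chosen with earlier results of these data known. Genes of the lists were named where they passed in the same direction in at least 3 lines, and others after their values were seen. The rule to name genes with a pattern like RN7SL1, RN7SK, RMRP and RPPH1 could not be applied, since these were listed at 0, and RN7SL2 was used instead. The RMRP entry of the files has an identifier that GENCODE release 44 lacks. The sequences of the 7SL genes are not reported here.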

Additional observations from a re-analysis of the deposited data

Results flagged for a closer look

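The change on siI1 differed between the 4 lines for 3 members by the interaction of line and siRNA over 24 libraries: RN7SL3 (limma adjusted p = 0.00480), RN7SL4P (limma adjusted p = 0.0204) and RN7SL5P (limma adjusted p = 0.0229). The log2 fold changes in A549, ES2, MV3 and PANC1 were 0.78, 0.18, 0.29 and 1.67 for RN7SL3, 0.29, -0.10, -0.03 and 1.142 for RN7SL4P, and 0.07, -0.12, -0.30 and 1.02 for RN7SL5P. Without siI1 replicate 3 RN7SL4P in A549 was at 0.020, without siC replicate 2 RN7SL5P in ES2 was at -0.020, and without siI1 replicate 1 RN7SL5P in MV3 was at -0.091. PANC1 was harvested at 96 hours and the other lines at 72, and line and time cannot be told apart.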

How the results depend on the processing

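In PANC1 1 member passed as reported. The count was 0 with no minimum mean, 3 at a mean of at least 5 FPKM, 2 at an equal sum of reads, 4 by limma voom, and, chosen after seeing the data, 2 at an equal sum of FPKM and 3 with 1 prior spread for all genes. It was 0 to 1 with a library left out, and 0 without siC replicate 1 or without siI1 replicate 1, 2 or 3. Members passing in A549, 0 as reported, were 2 by voom and 1 at a mean of at least 10 reads (chosen after seeing the data), in ES2 1 by voom, and in MV3 3 by voom and 1 at an equal sum of FPKM. Members that differed between lines, 3 as reported, were 4 at an equal sum of reads, at an equal sum outside the members and with 1 prior spread for all genes, and 1 at an equal sum of FPKM. The log2 ratio of the members' share in PANC1, 0.86 of reads, was 0.29 of summed FPKM, and 0.73 to 1.03 with a library left out. The cause of these differences was not tested. Directions that turned were all of values that did not pass: RN7SL2 in A549 was -0.030 at an equal sum of FPKM, and RN7SL4P in MV3 was 0.023 at an equal sum of reads, 0.041 at an equal sum outside the members and 0.048 at an equal sum in protein-coding genes (chosen after seeing the data). With a library left out, RN7SL2 ran from -0.066 to 0.063 in A549 and from -0.033 to 0.11 in ES2, RN7SL4P from -0.22 to 0.053 in ES2 and from -0.11 to 0.077 in MV3, and RN7SL5P from -0.20 to 0.26 in A549.

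Same-numbered libraries did not deviate together (correlations of -0.06 to 0.07). With the replicate block 1 member passed in PANC1, RN7SL3 (limma adjusted p = 0.0346), and 3 differed between lines. Of all calls in PANC1 45.7% were higher, against 23.1% at an equal sum of reads and 1.04% at an equal sum of FPKM. In MV3 the share was 45.5%, against 56.0% at an equal sum of reads, 59.7% at an equal sum outside the members and 60.8% at an equal sum in protein-coding genes. In ES2 it was 44.6%, against 55.6% at an equal sum of FPKM. Copies of 7SL share reads, which no depth resolves.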

Other observations

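Across 24 libraries, after centring within each line, 3 of 10824 compared genes outside the members had the log2 level most like that of RN7SL2: HEIH (r = 0.956), SCARNA21.3 (r = 0.948) and RAB1B (r = 0.944). Centred within line and siRNA, r was 0.829, 0.818 and 0.767. The members RN7SL4P, RN7SL3 and RN7SL5P had r = 0.897, 0.895 and 0.840. The points share libraries and their scale, so these are descriptions with no test. Of 227 genes of at most 400 bases other than the members with a mean of at least 10 reads in PANC1, 51 passed as higher and 13 as lower, with a median log2 fold change of 0.24 beside -0.03 over all genes with such reads. Over all 1893 tested, most with fewer reads, 80 were higher and 105 lower, with a median of -0.14. In ES2 9 of 262 passed as higher and 35 as lower, with a median of -0.15, and over all 2167 tested 67 were higher and 68 lower, with a median of -0.04. In A549 7 of 172 with such reads passed as higher and 12 as lower, and in MV3 32 and 55 of 539. Of all genes with such reads, 13.5% were higher and 15.8% lower in PANC1, and 12.5% and 16.1% in ES2. The shares were 7.77% and 10.6% in A549 and 17.8% and 22.1% in MV3. With no read minimum they were 11.3% and 13.4% in PANC1 and 10.5% and 13% in ES2. Among short genes of any read number that passed in the same direction in at least 3 lines, the 4 with the largest mean change were RNY3, HIST1H4L, RNU1.85P and AC011445.2. HIST1H4L, a histone H4 gene, fell by 1.12 in A549, 0.97 in ES2 and 0.57 in PANC1 on the log2 scale (limma adjusted p = 0.00596, 0.00438 and 0.0236). RNU1.85P, a U1 copy, fell and AC011445.2 rose in ES2, MV3 and PANC1, on means of at most 30 and 12.8 reads per library.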
